A study of Homo sapiens with 12 samples.

Results

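The keratin genes studied were KRT8, KRT18, KRT19, KRT7, KRT15, KRT13, KRT80 and KRT81, chosen by symbol. They are 8 of the 59410 genes counted, and each was found through its Ensembl ID. They held 87.8% of all counts on the 55 keratin genes of the table. Counts were sufficient for 6 of them, which had at least 180 counts in each library. KRT13 had 0 to 26 counts per library and was tested, but its values are given apart. KRT81 had 0 to 11 counts per library, too few to be tested.

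Nascent RNA was sequenced by PRO-seq, in which engaged RNA polymerases extend their transcripts in isolated nuclei, so that counts follow ongoing transcription and not stored mRNA. The cells were T47D, a single established human breast cancer line of luminal, estrogen receptor-positive type, in 12 libraries forming 6 groups of 2. Hormone-starved cells received 0.1% DMSO (starved vehicle) or 1 nM beta estradiol (estradiol). Cells in complete medium received 0.1% DMSO (complete vehicle), or fulvestrant, raloxifene or tamoxifen at 100 nM. All treatments lasted 1 h after 3 days in medium, and no label says whether 2 libraries of a group are separate cultures. P-values therefore reflect library-to-library spread, part or all of which may be technical.

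Keratins form the intermediate filaments of epithelial cells, and a filament subunit always pairs an acidic type I keratin with a basic type II keratin. KRT8 (type II) with KRT18 and KRT19 (type I) makes up the filaments of simple epithelia, among them the luminal cells of the breast, and KRT7 (type II) is found in ductal and glandular epithelia. KRT15 (type I) is best known from basal cells of stratified epithelia and from hair follicle stem cells, KRT13 (type I) from the mucosa of the mouth and esophagus, KRT80 (type II) from a wide range of epithelia, and KRT81 (type II) from hair.

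Library totals ran from 3682311 counts (raloxifene library 4) to 7856803 (raloxifene library 3). All 9 luminal markers were tested, a list holding KRT8, KRT18 and KRT19 themselves along with EPCAM, CDH1, GATA3, FOXA1, ESR1 and ELF3. Their summed levels were 3423 to 4397 CPM per library (counts scaled to a common library total). The largest counts among them were those of ESR1 (6729 to 14481 per library) and GATA3 (3569 to 6946). Of 7 basal markers, 3 were at or near 0: KRT5 had 0 to 1 counts per library, KRT14 had 0 to 2 and KRT17 had 0 to 3. The other basal markers were tested, among them TP63 with 20 to 64 counts per library and VIM with 4 to 18. The basal list summed to 83.8 to 114 CPM, held mainly by CDH3 and ACTA2, and the stromal, endothelial and blood list to 42.4 to 57.3 CPM, with PTPRC at 1 to 3 counts per library but COL1A1 at 58 to 175, CD68 at 69 to 191 and VWF at 10 to 47. None of that list's 5 tested genes was called in any of the 9 comparisons. Of all tested genes, 0.00428% were called for tamoxifen against raloxifene, the fewest. The most were called for starved against complete vehicle, 9.1% higher and 9.67% lower, so 0 of 5 says little. Estradiol was active in these libraries: GREB1, a classical estrogen target, was higher by 2.22 ± 0.053 (log2 ± SE) and PGR, the progesterone receptor gene, by 1.40 ± 0.058.

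The genes lie in the 2 keratin clusters of the genome (hg38, gene spans from RefSeq, GRCh38.p14). On chromosome 12 KRT80 (ENSG00000167767) spans chr12:52168996-52192014. KRT7 (ENSG00000135480) follows 41.2 kb away at chr12:52233243-52255853, and KRT81 (ENSG00000205426) at chr12:52285913-52291534. KRT8 (ENSG00000170421) lies 605.7 kb further on at chr12:52897191-52949860 and shares 1006 bases with KRT18 (ENSG00000111057), a type I gene placed among the type II genes at chr12:52948855-52952906. On chromosome 17 KRT13 (ENSG00000171401) spans chr17:41500981-41505612. KRT15 (ENSG00000171346) is 8.1 kb away at chr17:41513745-41518890, and KRT19 (ENSG00000171345) 4.7 kb beyond it at chr17:41523617-41528308.

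A promoter window of 250 bases before to 50 after the annotated start was at hand in RefSeq for 1 of the 8 genes, KRT8. It is shown because KRT8 had the smallest adjusted p of the members under estradiol. It lies on the minus strand at chr12:52926420-52926719 (GRCh38.p14), inside the RefSeq span of the gene, and reads 5′ to 3′:
KRT8: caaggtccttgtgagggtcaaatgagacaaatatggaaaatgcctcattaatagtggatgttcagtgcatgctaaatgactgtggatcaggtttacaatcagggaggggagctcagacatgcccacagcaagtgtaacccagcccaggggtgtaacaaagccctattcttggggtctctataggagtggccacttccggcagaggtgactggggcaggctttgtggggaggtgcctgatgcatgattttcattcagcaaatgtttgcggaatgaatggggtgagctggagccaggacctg
No letters are in capitals because none of the 6 motifs searched on both strands was in it. These were the core of the estrogen response element (AGGTCA, 3 bases of any kind, then TGACC), the single hexamer of that element (AGGTCA, which the core contains), a forkhead motif (TGTTTAC), an AP-1 motif (TGANTCA), the TATA box (TATAAA) and the GC box (GGGCGG). Of 35116 promoter windows of this length, 0.0313% held the core, 13.8% the single hexamer, 3.42% the forkhead motif, 7.71% the AP-1 motif, 11.5% the TATA box and 45% the GC box. The absence of a match says only that these letters are not in this window. The annotated start lies inside the gene span and may not be the start used in T47D cells.

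Per kilobase of gene span, KRT19, KRT15 and KRT18 were the most highly transcribed of the 8 genes. In complete vehicle the level of KRT19 was 73.6 CPM per kb of span, of KRT15 59.8 and of KRT18 38.7. The longer type II genes followed, KRT8 at 6.08, KRT80 at 3.86 and KRT7 at 2.03 CPM per kb. KRT13 stood at 0.271 and KRT81 at 0.0504 CPM per kb. These levels assume counting over the whole span, which the sources used here do not state. KRT8 is the gene most affected, since its RefSeq span of 52.67 kb is far longer than those of its type I partners.

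The genes differed in how far their levels moved over the 6 groups. Between the lowest and the highest group mean, the level moved 2.50-fold for KRT15 and 2.00-fold for KRT80. It moved 1.72-fold for KRT7, 1.49-fold for KRT19, 1.39-fold for KRT8 and 1.33-fold for KRT18. KRT8, KRT18, KRT19 and KRT15 had their highest mean in estradiol, whereas KRT7 and KRT80 had theirs in starved vehicle. In each of these 6 orders the top group did not overlap the next. For KRT8, KRT18, KRT19, KRT15 and KRT80 each drug group overlapped another group next to it in the order. Such gaps are weak evidence with 2 libraries a group, and their share over all tested genes was not counted. The KRT7 libraries of fulvestrant and tamoxifen, for 1, did not overlap although their difference was not called.

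**Figure D1:**
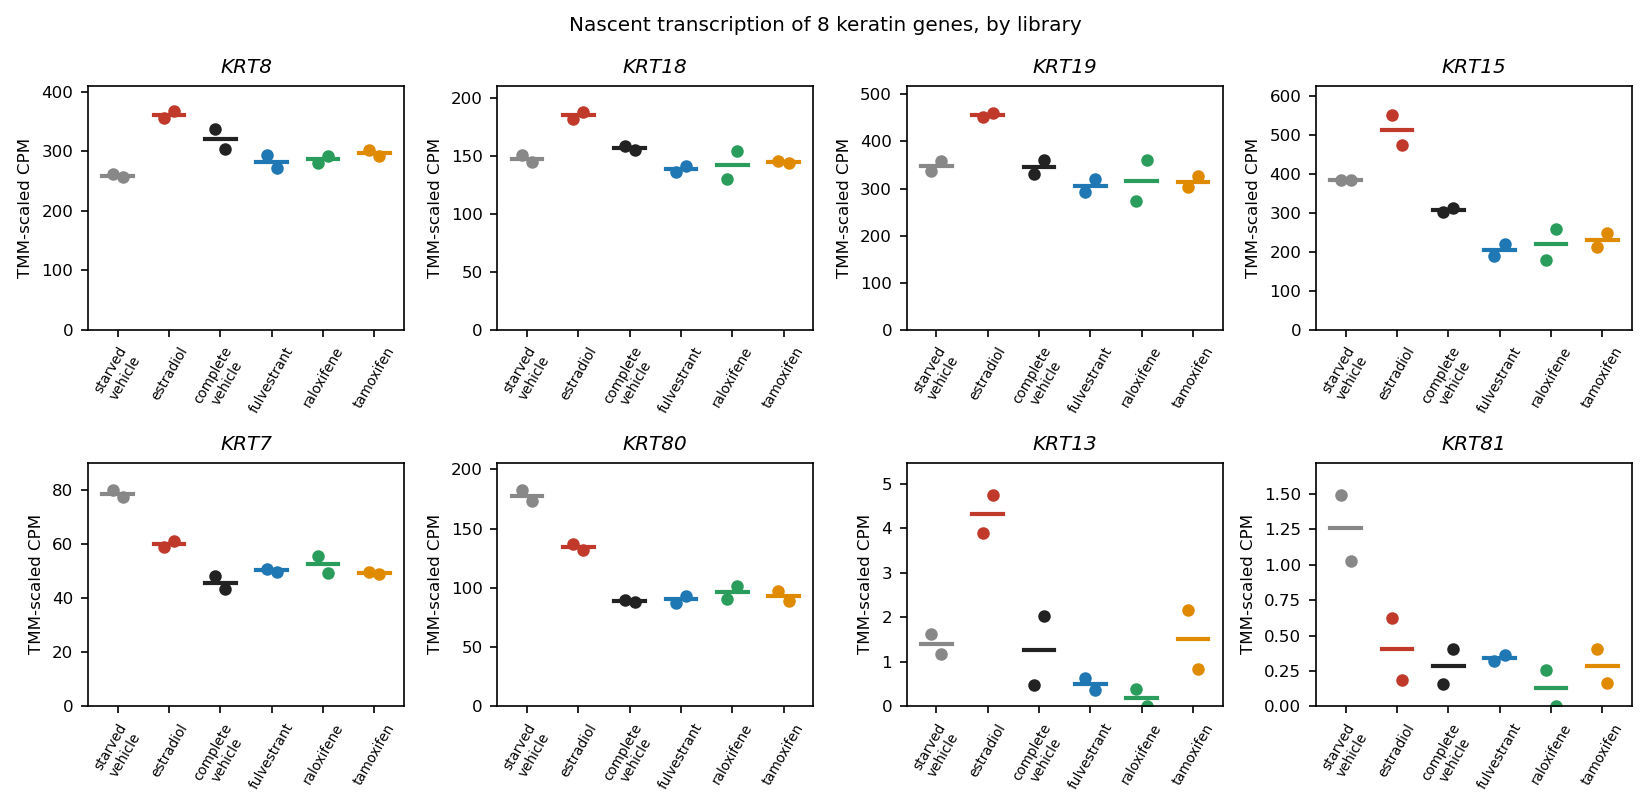
Level of each of the 8 keratin genes in TMM-scaled CPM (vertical axis, from 0) in the 6 groups; points are single libraries and lines are means of 2. KRT8, KRT18, KRT19 and KRT15 are highest in estradiol, KRT7 and KRT80 in starved vehicle, and KRT13 and KRT81 stay under 5 CPM in every library.

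The first comparison asked what 1 h of estradiol changed in starved cells. Of the 6 well-counted genes, 4 rose (KRT8, KRT18, KRT19 and KRT15) and 2 fell (KRT7 and KRT80), by edgeR's quasi-likelihood test with Benjamini-Hochberg adjustment over all 23375 tested genes. Over all tested genes 5.04% were called higher and 3.74% lower in this comparison, that is 1177 against 874, and without scaling of library sizes 1024 against 1217. The median log2 change of the 6 was 0.36, against -0.013 over all tested genes. In such bulk libraries, fewer cells of a kind and less transcription per cell cannot be told apart, and levels are relative to all other counted genes. The luminal marker list, whose sum includes KRT8, KRT18 and KRT19, went from 3423 and 3461 CPM to 3928 and 4016 CPM. Of its 9 genes 5 were higher (KRT8, KRT18, KRT19, ESR1 and ELF3) and 1 was lower (FOXA1). The sum is therefore not separate from the keratin changes. The basal list went from 113 to 114 CPM to 83.8 to 86.3 CPM. Among its 4 tested genes CDH3 (-0.35 ± 0.086) and ACTA2 (-0.51 ± 0.128) were lower, and TP63 and VIM were not called. KRT5, KRT14 and KRT17 were at or near 0. The part of the other markers in the keratin changes was not tested.

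Among the type I genes, KRT18 was at 150.7 and 144.6 CPM in starved vehicle and at 182.4 and 188.5 CPM in estradiol. KRT18, the partner of KRT8, thus rose in both estradiol libraries, by 0.33 ± 0.067 (log2 ± SE, adjusted p = 0.0021). Without starved vehicle library 4 the adjusted p was 0.052, and with the counts of its processed copies added the rise was 0.19 ± 0.069 (adjusted p = 0.10), so the call was lost. KRT19, the smallest keratin and one that lacks most of the tail domain, went from 338.1 and 357.8 CPM to 451.1 and 461.3 CPM. Its rise was 0.39 ± 0.082 (adjusted p = 0.0030), with an adjusted p of 0.073 without starved vehicle library 3.

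KRT15, which neighbours KRT19, was at 384.8 and 386.3 CPM in starved vehicle and at 551.4 and 474.8 CPM in estradiol. Both estradiol libraries were above both starved ones, but they were farther apart than those of KRT18 or KRT19. The rise was 0.41 ± 0.106 (adjusted p = 0.015). It did not pass without estradiol library 3 (adjusted p = 0.23), without starved vehicle library 3 (0.12) or library 4 (0.11), or by DESeq2 (0.24). KRT13 had 12 and 8 counts in starved vehicle and 25 and 26 in estradiol. Its fitted change of 1.60 ± 0.515 had an adjusted p of 0.0486, and each of the 4 fits that left out 1 library of these groups gave an adjusted p of 0.16 to 0.34.

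Among the type II genes, KRT8 was the one that rose. Its level was 261.9 and 256.8 CPM in starved vehicle and 355.9 and 367.2 CPM in estradiol, a change of 0.48 ± 0.058 (adjusted p = 5.4e-06). KRT7 went the other way, from 80.18 and 77.32 CPM to 59.11 and 61.36 CPM. Both estradiol libraries of KRT7 were below both starved ones, a fall of -0.39 ± 0.079 on the log2 scale (adjusted p = 0.0021). KRT80 fell by a similar amount, from 182.3 and 173.4 CPM to 136.9 and 131.8 CPM (-0.40 ± 0.066, adjusted p = 0.0002).

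The second comparison was between starved and complete medium in the presence of vehicle, which gives the level from which estradiol started. KRT7, KRT80 and KRT15 were higher in starved cells, KRT8 was lower, and KRT18 and KRT19 did not pass the test. Thus 3 of 6 well-counted genes were higher and 1 lower, where 9.1% of all tested genes were called higher and 9.67% lower. Their median log2 difference was 0.17, against 0.0073 over all tested genes. The starved vehicle libraries also enter the estradiol comparison, so the values of the 2 comparisons are not independent.

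KRT80 had 89.54 and 88.18 CPM in complete vehicle against the starved levels given above, a difference of 1.00 ± 0.070 (edgeR's quasi-likelihood test, adjusted p = 1.4e-09). KRT7 had 48.19 and 43.38 CPM in complete vehicle and was higher in starved cells by 0.78 ± 0.084 (adjusted p = 7e-07). These were the largest differences of the well-counted members, and in neither gene did the libraries of the groups overlap. KRT8 had 337 and 303.4 CPM in complete vehicle and was lower in starved cells (-0.31 ± 0.059, adjusted p = 0.00066).

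KRT18 had 158.4 and 155.4 CPM in complete vehicle, with a starved minus complete difference of -0.09 (95% interval -0.23 to 0.05, adjusted p = 0.44). KRT19 had 330.6 and 359.8 CPM, with a difference of 0.01 (-0.16 to 0.19, adjusted p = 0.95), and its libraries overlapped. KRT15 had 302.5 and 313.2 CPM and was higher in starved cells by 0.33 ± 0.109 (adjusted p = 0.042), a call lost by DESeq2 (adjusted p = 0.32) and without any 1 of the 4 libraries (0.12 to 0.22). KRT13 had 3 and 10 counts in complete vehicle and did not pass (adjusted p = 0.85). Beside these differences, the luminal marker list summed to 3423 and 3461 CPM in the starved vehicle libraries against 4357 to 4397 CPM in complete vehicle. Of its 9 genes 1 was higher (ELF3) and 2 were lower (ESR1, -0.96 ± 0.040, and KRT8). ESR1 and GATA3, with the most counts of the list, weigh most in this sum. The list median was 0.013 on the log2 scale, so the lower sum was not a fall shared by most markers. The basal list summed to 113 to 114 CPM against 90.2 to 94.2 CPM. Of its 4 tested genes 1 was higher (CDH3, 0.30 ± 0.087), and ACTA2, TP63 and VIM were not called. KRT5, KRT14 and KRT17 were near 0 in every library. The part of either in the keratin differences was not tested.

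**Figure D2:**
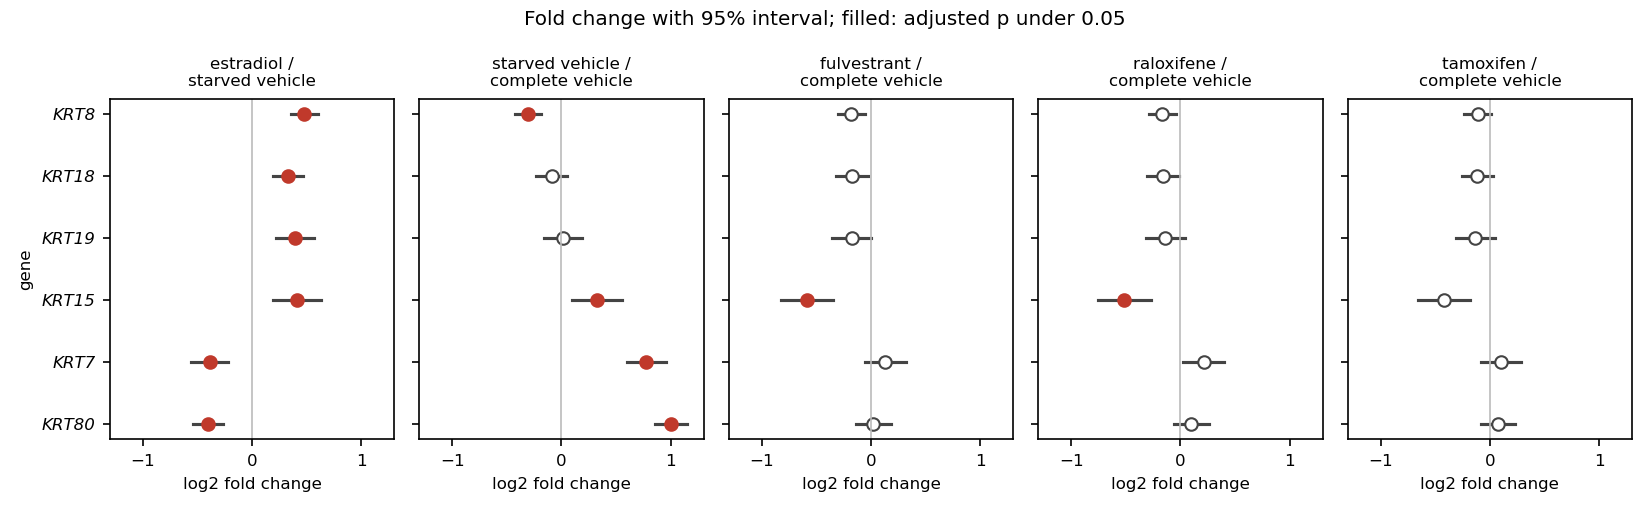
Log2 fold change of the 6 well-counted keratin genes (horizontal axis) in 5 comparisons, with 95% intervals of the fit; filled points had an adjusted p under 0.05. Estradiol raises the upper 4 genes and lowers KRT7 and KRT80. With starvation the filled points are KRT7, KRT80 and KRT15, which are higher, and KRT8, which is lower. Among the drug comparisons the filled points are KRT15 with fulvestrant and with raloxifene.

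Estradiol-treated cells were also set against complete vehicle, a comparison in which medium and ligand differ at once and which shares a group with each of those above. All 6 well-counted genes were higher in estradiol by edgeR's quasi-likelihood test, where 8.09% of all tested genes were called higher. KRT15 differed most (0.74 ± 0.109), then KRT80 (0.60 ± 0.073), KRT19 (0.40 ± 0.083) and KRT7 (0.39 ± 0.088). KRT18 (0.24 ± 0.068) and KRT8 (0.17 ± 0.058) differed least. The KRT8 and KRT18 calls were the 2 not made by DESeq2 (adjusted p = 0.13 and 0.075). The KRT8 call was also lost when its copies were pooled (0.060), without scaling of library sizes (0.071), and without complete vehicle library 4 (0.41), estradiol library 3 (0.089) or estradiol library 4 (0.22). The KRT18 call was lost without complete vehicle library 3 (0.081) or 4 (0.11) or estradiol library 4 (0.11), and that of KRT7 without complete vehicle library 4 (0.059). KRT13, at 3 and 10 counts against 25 and 26, had an adjusted p of 0.022, and of 0.34 without complete vehicle library 3, 0.079 without estradiol library 3 and 0.15 without estradiol library 4. The levels of KRT7 and KRT80 in estradiol therefore lay between those of the 2 vehicle groups, with no overlap on either side.

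The drugs were each compared with complete vehicle after 1 h. Fulvestrant is an antagonist that leads to degradation of the estrogen receptor, and raloxifene and tamoxifen are selective receptor modulators. KRT15 was the one member called lower, with fulvestrant and with raloxifene. It was at 302.5 and 313.2 CPM in complete vehicle, at 189.3 and 221.9 CPM in fulvestrant, at 180.6 and 260.3 CPM in raloxifene and at 211.8 and 248.9 CPM in tamoxifen. All 6 drug libraries were below both vehicle libraries. Such a gap is weak evidence, and its share over all tested genes was not counted. For each drug, 5 of the 6 well-counted genes had libraries that did not overlap those of vehicle, most of them without a call. The luminal marker list summed to 3903 to 4290 CPM in the drug libraries against 4357 to 4397 CPM in complete vehicle. Of its 9 genes 1 was lower with fulvestrant (ESR1) and 0 were called with the others, and its part in the KRT15 values was not tested.

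With fulvestrant the KRT15 change was -0.58 ± 0.114 (edgeR's quasi-likelihood test, adjusted p = 0.0076), or 33.3% lower. It was 1 of the 6 well-counted genes called lower, against 1.05% of all tested genes. The call was lost by DESeq2 (adjusted p = 0.12), without complete vehicle library 3 (0.078) or 4 (0.11), and without fulvestrant library 3 (0.22). KRT8 (-0.18 ± 0.059), KRT18 (-0.18 ± 0.070) and KRT19 (-0.17 ± 0.085) had adjusted p-values of 0.28, 0.49 and 0.69. KRT7 and KRT80 had values of 0.13 ± 0.091 and 0.02 ± 0.076. At an unadjusted p under 0.05, 3 of the 6 genes passed, where 7.5% of all tested genes did.

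With raloxifene the KRT15 change was -0.51 ± 0.115 (adjusted p = 0.0458), again 1 of 6 genes lower where 0.479% of all tested genes were lower. Without raloxifene library 3, the deepest library, the change was -0.24 (adjusted p = 0.47). It was also lost without complete vehicle library 3 (0.28) or 4 (0.32), by DESeq2 (0.49) and in a fit of the 2 groups alone (0.085). KRT19 was at 274.3 and 359.6 CPM in raloxifene and at -0.14 ± 0.086 against vehicle. Without raloxifene library 4, the shallowest of the 12, KRT19 was lower by -0.33 (adjusted p = 0.025). The other well-counted members had adjusted p-values of 0.34 (KRT8) to 0.73 (KRT80). At an unadjusted p under 0.05, 4 of the 6 genes passed, where 9.78% of all tested genes did. KRT15, KRT8 and KRT18 of these were lower, and KRT7 was higher (0.21 ± 0.091).

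With tamoxifen 0 of the 6 genes were called, by edgeR's quasi-likelihood test or by DESeq2, and 0.0471% of all tested genes were lower. At an unadjusted p under 0.05, 1 of them passed, where 6.55% of all tested genes did. This was KRT15, with a change of -0.42 ± 0.113 (95% interval -0.66 to -0.19, adjusted p = 0.36). That call was made in a fit of the 2 groups alone (adjusted p = 0.021) and in a fit without a filter on low counts (6.7e-09). The change was -0.42 in both, with an SE of 0.070 and 0.059. These fits thus differed from the main one in the estimated spread and not in the size of the change. Whether the 3 drugs differed in their effect on KRT15 was tested directly.

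Between the drugs, all at 100 nM for 1 h, 3 pairs were compared for each gene. No member passed edgeR's quasi-likelihood test in any pair, where 0.103% of all tested genes were called for raloxifene against fulvestrant, 0.462% for tamoxifen against fulvestrant and 0.00428% for tamoxifen against raloxifene. For KRT15 the difference was 0.07 (95% interval -0.18 to 0.32) for raloxifene against fulvestrant, 0.16 (-0.08 to 0.40) for tamoxifen against fulvestrant and 0.09 (-0.15 to 0.33) for tamoxifen against raloxifene. Among the 6 well-counted genes the pair differences ran from -0.11 (KRT7, tamoxifen against raloxifene) to that of KRT15 for tamoxifen against fulvestrant, and 0 were called by DESeq2. At an unadjusted p under 0.05 also 0 passed, where 4.9%, 5.08% and 4.54% of all tested genes did in these pairs, in the order given above. KRT13 had 4 and 2 counts in fulvestrant, 3 and 0 in raloxifene, and 16 and 5 in tamoxifen. Its unadjusted p was 0.045 for tamoxifen against fulvestrant and 0.0083 for tamoxifen against raloxifene, with adjusted p-values of 0.98 and 1.00.

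The counts of the filament partners KRT8 and KRT18 were also set against each other within each library, as a description without a test. The same was done for KRT15 and KRT19, which are both type I and so not partners. KRT8 had 1.74 and 1.78 counts per KRT18 count in starved vehicle, lower than in any of the other 10 libraries, which ran from 1.895 to 2.159. The mean was 1.76 ± 0.028 (SD, n = 2) in starved vehicle, 1.95 ± 0.0014 in estradiol and 2.04 ± 0.12 in complete vehicle. The chromosome 17 neighbours KRT15 and KRT19 gave a different order. KRT15 had 1.11 ± 0.041 counts per KRT19 count in starved vehicle, 1.13 ± 0.14 in estradiol and 0.893 ± 0.031 in complete vehicle. It had 0.672 ± 0.032 in fulvestrant, 0.691 ± 0.046 in raloxifene and 0.730 ± 0.048 in tamoxifen, and the highest drug library (0.764) was below the lowest vehicle library (0.870). KRT7 and KRT80 together took 18.7% and 17.9% of the members' counts in the starved vehicle libraries and 10.4% to 14.5% in the other 10.

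**Figure D3:**
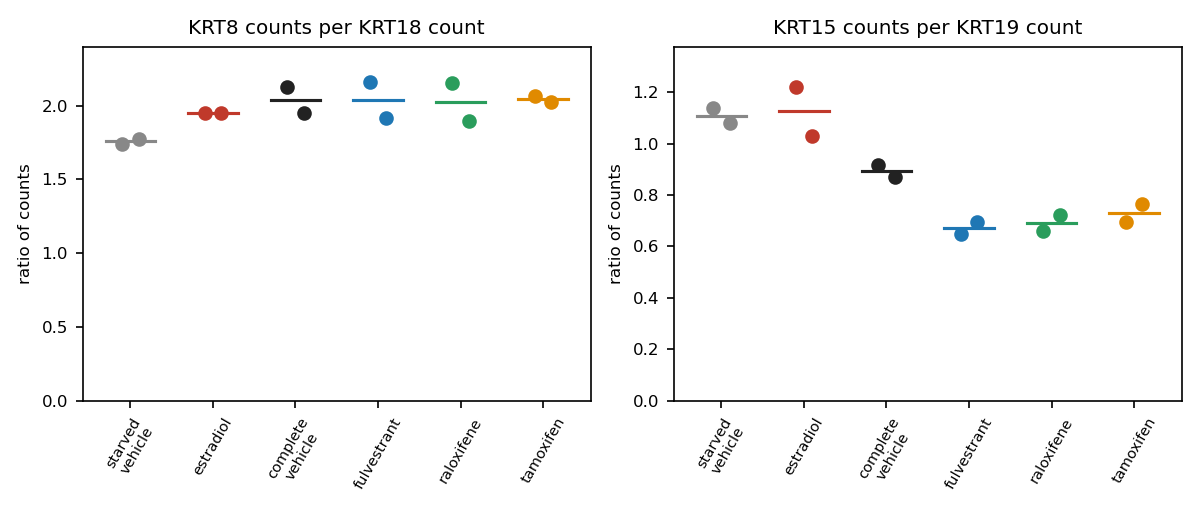
Counts of KRT8 per count of KRT18 (left) and of KRT15 per count of KRT19 (right) in each library, with group means as lines and both vertical axes from 0. The left ratio is lowest in the 2 starved vehicle libraries, and the right ratio is below 0.80 in all 6 drug libraries and above 0.85 in the other 6.

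KRT81 had 11 and 7 counts in starved vehicle, 4 and 1 in estradiol, 1 and 2 in complete vehicle and 0 to 3 in the drug libraries. In a fit without a filter on low counts its adjusted p was 0.12 for starved against complete vehicle and 0.49 for estradiol against starved vehicle. The gene lies wholly inside the span of KRT86 (ENSG00000170442, chr12:52274645-52309163), a closely similar hair keratin, and how the authors' counting split reads between them is not known. KRT86 had 174.2 and 175.3 CPM in starved vehicle, 153.5 and 138.4 CPM in estradiol, and 64.41 and 61.3 CPM in complete vehicle. It was thus higher in starved than in complete vehicle by 1.47 ± 0.071 (edgeR's quasi-likelihood test, adjusted p = 3.7e-12) and fell with estradiol by -0.26 ± 0.062 (adjusted p = 0.0092). The summed counts of KRT81, KRT83 and KRT86 gave 1.47 ± 0.070 and -0.26 ± 0.062, values set by KRT86, which held 7431 of their counts against 36 for KRT81.

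KRT80, KRT7 and KRT86 are neighbours on chromosome 12, and the tested genes within 250 kb of KRT80 were therefore examined. Of these 11 genes, 4 were higher in starved than in complete vehicle (LINC00592, KRT7, KRT88P and KRT86) and 0 were lower. With estradiol 3 were lower (KRT7, KRT88P and KRT86) and 0 higher. Over all tested genes 9.1% were called higher with starvation and 3.74% lower with estradiol. KRT7 and KRT86, counted here, were already reported above and led to the choice of this stretch. The counts are therefore not separate from those results. The pseudogene KRT88P, with 84 counts in each starved vehicle library, 38 and 36 in estradiol and 28 and 25 in complete vehicle, differed by 1.31 ± 0.217 with starvation and by -0.92 ± 0.199 with estradiol. LINC00592, a noncoding RNA gene between KRT80 and KRT7, was at 0.89 with starvation and at -0.16 (adjusted p = 0.48) with estradiol. Both genes were singled out after their values were seen. The other neighbours of KRT80 on its far side, ACVR1B, TAMALIN, NR4A1, ATG101, SMIM41 and OR7E47P, had adjusted p-values of 0.15 to 1.00 with starvation and of 0.51 to 0.72 with estradiol. KRT7-AS, an antisense gene inside KRT7 with 698 counts in all, was at 0.42 ± 0.193 (adjusted p = 0.15) and 0.05 ± 0.178 (0.93).

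**Figure D4:**
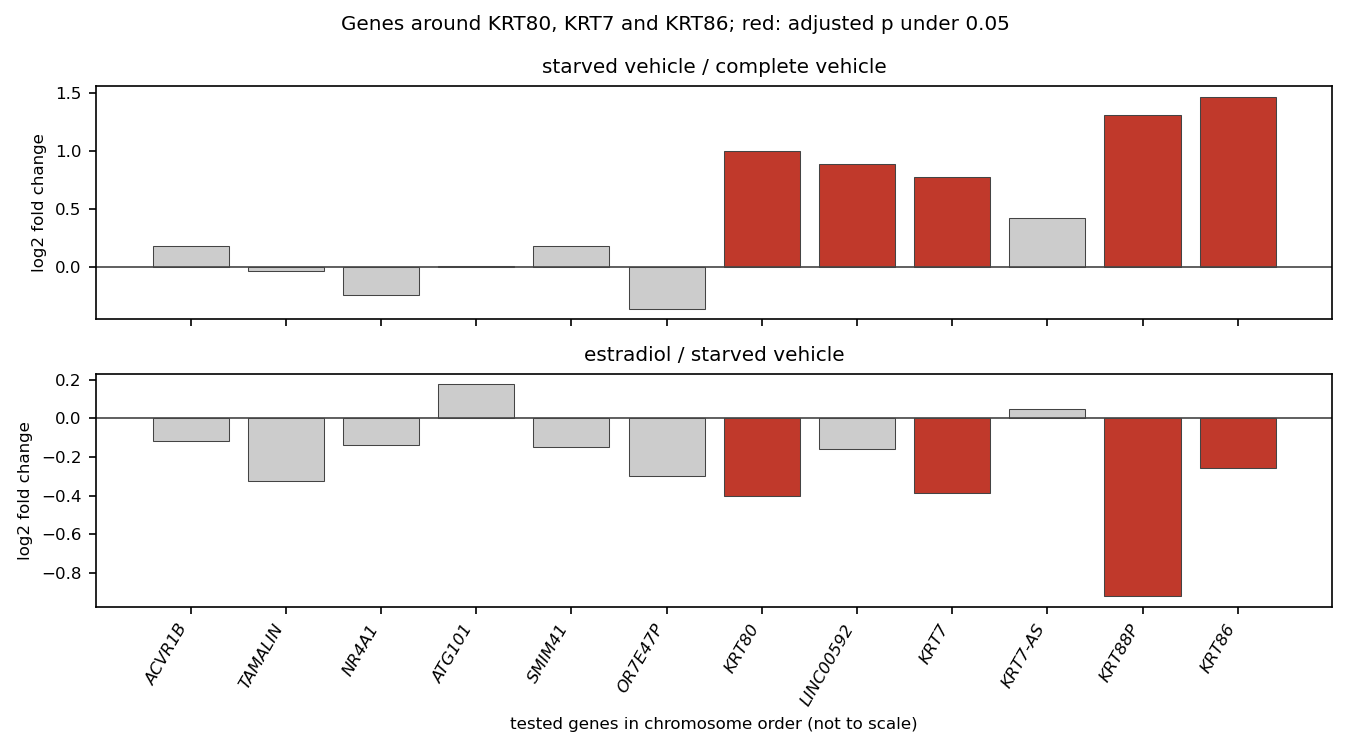
Log2 fold change (vertical axes) of KRT80 and the 11 tested genes within 250 kb of it, in chromosome order and not to scale, for starved against complete vehicle (upper) and estradiol against starved vehicle (lower); red bars had an adjusted p under 0.05. The red bars lie at KRT80 and the genes on its KRT86 side, upwards with starvation and downwards with estradiol, with KRT7-AS grey in both panels and LINC00592 grey in the lower one.

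KRT7 and KRT81 lie in the same stretch and share most of these neighbours. Of 11 tested genes within 250 kb of KRT8, estradiol raised 2, KRT18 and the translation factor gene EIF4B (0.18). Of 8 tested genes within 250 kb of KRT15, estradiol raised 3, which were KRT13, KRT19 and the translation factor gene EIF1 (0.32, adjusted p = 0.020), and lowered 0. Over all tested genes 5.04% were called higher with estradiol. KRT18, KRT13 and KRT19 are members whose rises were already given, so these counts are not separate from them. None of the 8 genes near KRT15 was called with fulvestrant or raloxifene, while KRT15 itself was called lower with both. Of all tested genes 1.05% and 0.479% were lower in these comparisons, so 0 of 8 says little. Among the 8, KRT13 had few counts, and so did MIR6510, a microRNA gene inside KRT15 with 76 counts in all. No test of the difference between KRT15 and its neighbours was made. EIF4B and EIF1 were likewise named after their values were seen.

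Among all 55 keratin genes 12 were tested, 7 of them members and the others KRT4, KRT10, KRT23, KRT86 and KRT222. Of the 43 untested genes, 41 had fewer than 10 counts in every library. With estradiol, 4 of the 7 tested type I genes rose and 0 fell, all 4 of them members, and of the 5 tested type II genes 1 rose and 3 fell. In starved against complete vehicle, 1 of 7 type I genes was higher and 0 lower, and 4 of 5 type II genes were higher and 1 lower. Over all tested genes estradiol raised 5.04% and lowered 3.74%, and starvation raised 9.1% and lowered 9.67%. The type II genes that fell with estradiol were the neighbours KRT80, KRT7 and KRT86. Those higher with starvation were the same neighbours and KRT4, which had few counts, so these counts do not describe type II genes in general. KRT4, a mucosal keratin, had 37 and 22 counts in starved vehicle, 20 and 23 in estradiol and 2 and 4 in complete vehicle. It differed between the vehicle groups by 2.89 ± 0.747 (adjusted p = 0.0019).

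Desmosomes anchor keratin filaments at cell junctions. With estradiol 1 of their 9 tested genes fell, PKP2 (plakophilin, -0.74 ± 0.086), and 0 rose, with a list median of -0.14. With starvation JUP (plakoglobin, 0.26 ± 0.086) and PKP2 (0.24 ± 0.081) were higher and DSP (desmoplakin, which binds keratins directly) was lower (-0.31 ± 0.087). Of 16 tested linkers and regulators of keratins, estradiol lowered 3 cytolinker genes, DST (-0.25 ± 0.055), PLEC (-0.40 ± 0.096) and PPL (-0.34 ± 0.096), and raised 0. Starvation raised 3 of them, DST (0.75 ± 0.056), TRIM29 (1.50 ± 0.190) and PPL (0.34 ± 0.097), and lowered 2, among them the integrin gene ITGA6 (-0.79 ± 0.132). In both lists 0 genes were called for each of the 3 drugs against vehicle. Over all tested genes estradiol raised 5.04% and lowered 3.74%, and starvation raised 9.1% and lowered 9.67%. Fulvestrant lowered 1.05% of all tested genes, raloxifene 0.479% and tamoxifen 0.0471%, so 0 calls in lists this short say little.

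Of 9 tested genes for other intermediate filaments, estradiol raised 1, BFSP2 (1.06 ± 0.147), and lowered 2, BFSP1 (-0.35 ± 0.081) and the nuclear lamin gene LMNB1 (-0.26 ± 0.069). BFSP1 and BFSP2 encode partner proteins of the lens filament. With starvation both went the opposite way, BFSP2 lower by -1.53 ± 0.142 and BFSP1 higher by 0.43 ± 0.083, while LMNB1 was lower here too (-0.61 ± 0.064). Among 16 transcription factors of luminal cells, estradiol raised 5, including GRHL2 (0.84 ± 0.043), XBP1 (0.85 ± 0.091) and ESR1, the estrogen receptor gene (0.44 ± 0.040), and lowered 4, including TFAP2A (-0.54 ± 0.052). Fulvestrant lowered 3 of these 16, GRHL2 (-0.33 ± 0.043), ESR1 (-0.24 ± 0.040) and TFAP2C (-0.41 ± 0.089). Raloxifene lowered 1, GRHL2 (-0.22 ± 0.043), and tamoxifen 0. Of all tested genes 1.05% were lower with fulvestrant, 0.479% with raloxifene and 0.0471% with tamoxifen. With estradiol 5.04% were higher and 3.74% lower, and with starvation 9.1% were higher and 9.67% lower.

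KRT8 and KRT18 have many processed copies in the genome, which can share reads with them. The table held 51 copies of KRT8 with 4604 counts in all, equal to 20.8% of the counts of KRT8, and 67 copies of KRT18 with 3737 counts, equal to 33.3%. KRT19 had 5 copies, with counts equal to 1.79% of its own. The loss of the KRT18 call with the copies added is given above. KRT8 and KRT18 also overlap by the 1006 bases given above, and KRT87P shares 5310 bases with KRT7 but held 21 counts.

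Over the 12 libraries, log2 levels of KRT7 and KRT80 had a Pearson correlation of 0.94, KRT18 and KRT19 of 0.95, KRT19 and KRT15 of 0.91, KRT8 and KRT18 of 0.80, and KRT7 and KRT8 of -0.30. These are descriptions over libraries that share groups and depth. Genes most like each member, among 14629 genes with a mean of at least 50 counts, were AJUBA (0.99), BRINP3 (0.98) and FOXP1 (0.98) for KRT7, and SRGAP1 (0.99) and ENSG00000283162 (0.99) for KRT80. TOB1 was the closest gene to both KRT18 (0.97) and KRT19 (0.97), followed by SLFN5 (0.96) and ENSG00000287644 (0.95) for KRT18 and by TOB1-AS1 (0.96) and GSN (0.96) for KRT19. For KRT8 they were CA12 (0.96), ENSG00000269476 (0.96) and PFKFB3 (0.95), and for KRT15 ENSG00000288711 (0.98), RCAN1 (0.97) and PGBD4 (0.97).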

How the data were processed

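The deposited values are the authors' raw counts, given as whole numbers for each Ensembl gene ID in each of 12 libraries. Reads were handled with SAMtools 1.9, Bowtie2 2.4.4 and cutadapt 1.8.1 on build hg38, per the submitters' processing notes. The sources used here do not give the counting tool, annotation, strand setting or counted part of a gene, so overlapping and antisense genes are uncertain. Of 60605 IDs, 60463 had a symbol, and the 142 others held 0.281% of counts. For repeated symbols the ID with the highest total was kept, leaving 59410 genes. Libraries are named 3 and 4 in each group, as in their descriptions. The 2 libraries of each group were not copies of the same column (chi-square per gene 1.2 to 2.34). Pairs across groups were not checked, and the values do not tell whether the libraries are separate cultures.

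Counts were fitted in R 4.3.3 with edgeR 4.0.16: filterByExpr (23375 genes), TMM scaling, and a quasi-likelihood model of the 6 groups over all 12 libraries. P-values were adjusted by Benjamini-Hochberg over every tested gene (threshold 0.05). Levels are TMM-scaled CPM. The scripts were tested on simulated data. Alternatives were DESeq2 1.42.0, RLE or no scaling, no filter, copies pooled, 2 groups alone, a replicate block and leaving out each library. Named besides the members were up to 4 genes per list and comparison by adjusted p, the 3 genes most like each member (1 of them is not reported here), and genes overlapping or copying a member. The members and lists were chosen with earlier results of these data known.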

Additional observations from a re-analysis of the deposited data

How the results depend on the processing

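With 2 libraries a group, small differences cannot be resolved, and KRT13 and KRT81 are limited by depth. Of 680 values of single members under the alternatives, 600 kept direction and side of the threshold, 40 lost a call, 5 gained one, 0 called values reversed, and 35 uncalled ones changed sign. Counts here are over all 7 tested members, KRT13 included. For estradiol against starved vehicle 7 were called, and 4 to 6 when 1 library was left out. For estradiol against complete vehicle 7 were called, 4 by DESeq2 and 4 to 5 with 1 library left out. For starved against complete vehicle 4 were called and each alternative stayed within 1.5 times that. For fulvestrant 1 was called, 0 by DESeq2 and 0 to 1 with 1 library left out. For raloxifene 1 was called, 0 by DESeq2 or in the 2 groups alone, and 0 to 2 with 1 library left out. For tamoxifen 0 were called, 1 in the 2 groups alone and 1 with no filter. The cause was not tested.

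Genes called over all tested genes numbered 2051 for estradiol against starved vehicle (1114 by DESeq2, 1155 to 1325 with 1 library left out), 4386 for starved against complete vehicle (2379, 2555 to 2875) and 3788 for estradiol against complete vehicle (2094, 2229 to 2616). For fulvestrant they numbered 270 (143 to 197 with 1 library left out), for raloxifene 133 (354 with no filter, 29 to 204) and for tamoxifen 12 (21 by DESeq2 and in the 2 groups alone, 93 with no filter, 0 to 13). For raloxifene against fulvestrant they numbered 24 (90 with no filter, 14 to 168), for tamoxifen against fulvestrant 108 (170 with no filter, 66 in the 2 groups alone, 48 to 86) and for tamoxifen against raloxifene 1 (65 with no filter, 0 in the 2 groups alone, 0 to 164).

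The numbers 3 and 4 are not stated to pair libraries. The differences between libraries 3 and 4 had correlations of 0.099 to 0.423 over 15 pairs of groups, 14 of them above 0.1. With a replicate block, 2 members were called for fulvestrant (KRT15, and KRT8 at -0.18, adjusted p 0.034) and 1 for tamoxifen (KRT15, adjusted p 0.00095), and no other call of a member changed. Over all tested genes the block moved the calls to 498 for fulvestrant, 490 for raloxifene, 172 for tamoxifen, 77 for raloxifene against fulvestrant, 242 for tamoxifen against fulvestrant and 35 for tamoxifen against raloxifene.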
